A study of Mus musculus with 2 samples.

Results

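Ly6d, Ly6a, Ly6e, Ly6c1 and Ly6c2 were followed across sorted early thymic progenitors of the mouse. They are 5 of the 27998 genes in the deposited gene list, chosen by symbol, and each symbol stood for 1 gene. Thymus cells of C57BL/6 mice with a YFP allele of Bcl11b (genotype label Bcl11byfp/yfp, shared by all cells) were sorted, tagged with 1 hashtag antibody per sort, pooled and profiled as 1 droplet library of 3′ mRNA ends. The authors assigned 7948 of 8293 cell barcodes to a sort. All 5 sorts were Kit+ and negative for lineage antigens and the dead-cell dye 7AAD. The 4 gated sorts were also CD25- and Bcl11b-. Among them, the Flt3- Ly6d+ sort (847 cells) was not gated on HSA, the CD24 antigen. The Flt3- Ly6d- HSA- sort held 1205 cells. The Flt3+ HSA+ sort (1182 cells) was not gated on Ly6d, and the Flt3+ Ly6d- HSA- sort held 1412 cells. The control (3302 cells) was not gated on CD25, Bcl11b, Flt3, Ly6d or HSA, and its label names early thymic progenitors and the following DN2 stage. The labels state neither the age nor the number of the mice.

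Ly6 proteins are small, cysteine-rich surface proteins, most of them tied to the membrane by a glycosylphosphatidylinositol (GPI) anchor. Several are classical antigens used to divide blood cells. In mouse bone marrow, surface Ly6d separates lymphoid progenitors biased to the B lineage from those with wider lymphoid potential, and Ly6a is the stem cell antigen Sca-1. Ly6e is an interferon-responsive antigen first described on immature thymocytes. Ly6c1 and Ly6c2 encode the Ly6C antigen, whose surface level divides monocytes. The genes form a cluster on chromosome 15. In the mm10 build (GENCODE M21), Ly6d lies at chr15:74762056-74763620, Ly6e at chr15:74955051-74959905, Ly6a at chr15:74994877-74998031, Ly6c1 at chr15:75044018-75048830 and Ly6c2 at chr15:75108158-75111970. Ly6e is on the plus strand and the other 4 are on the minus strand.

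Ly6c1 and Ly6c2 are near-copies, so it matters for every value below whether their reads can be told apart. Their annotated transcripts matched at 95.02% of aligned bases, and the last 300 bases, where 3′ reads fall, matched at 93.5% with a longest shared run of 124 bases. Reads lying wholly in that run cannot be assigned to 1 of the pair. The last 300 bases of Ly6a matched those of Ly6c1 at 80.1% and those of Ly6c2 at 81.0%, whereas those of Ly6d matched the other 4 members at 45.9% to 47.9%. The windows from 250 bases before to 50 bases after the first listed start had 62.3% identity. The Ly6c2 window opens with letters that lie further inside the Ly6c1 window, so this value also depends on where the starts are listed. The windows are shown because the RNA of the pair parted between cell classes in these data. Both are from RefSeq (GRCm38.p6), on the minus strand, at chr15:75048788-75049087 for Ly6c1 and chr15:75111922-75112221 for Ly6c2. Capitals mark GAGGAAGT, a core letter pattern of sites for the transcription factor PU.1, whose gene Spi1 is in the T-lineage stage list used below.

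Ly6c1: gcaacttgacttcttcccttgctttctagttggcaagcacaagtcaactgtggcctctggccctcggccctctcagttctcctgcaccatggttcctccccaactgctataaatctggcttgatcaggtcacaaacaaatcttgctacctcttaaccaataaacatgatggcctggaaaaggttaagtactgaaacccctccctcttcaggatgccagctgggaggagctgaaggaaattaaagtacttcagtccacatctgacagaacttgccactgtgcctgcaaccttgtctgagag
Ly6c2: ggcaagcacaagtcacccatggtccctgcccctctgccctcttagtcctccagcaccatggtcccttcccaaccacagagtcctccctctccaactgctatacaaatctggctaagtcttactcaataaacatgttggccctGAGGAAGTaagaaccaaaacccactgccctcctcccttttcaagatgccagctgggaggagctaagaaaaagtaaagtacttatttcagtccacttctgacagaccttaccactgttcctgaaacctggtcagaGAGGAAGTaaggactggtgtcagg

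GAGGAAGT, searched on both strands (reverse ACTTCCTC), was found in 3.20% of 32851 promoter windows of this length. The Ly6c2 window held it at 108 bases before the start and again at 27 bases after it. The Ly6c1 window held none, but the window of its second listed start, further into the gene, held 1, which begins in the last bases of the window shown and is cut by its edge. The absence from the shown window is therefore set by where the window ends. TATAAA, the TATA box pattern, was in 13.6% of all windows and in the shown Ly6c1 window, at 143 bases before the start, and not in the Ly6c2 window. TTGCNNAA, a half-site pattern of C/EBP factors, was in neither gene's windows and in 10.8% of all windows. Such matches describe letters and not binding.

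RNA of the gate genes went with the gates in part. Flt3 UMIs were found in 14.4% of Flt3- Ly6d+ and 21.4% of Flt3- Ly6d- HSA- cells, against 68.2% of Flt3+ HSA+ and 71.4% of Flt3+ Ly6d- HSA- cells. Bcl11b UMIs were found in 0.332% to 2.01% of cells of the gated sorts, against 43.1% of control cells. Il2ra, which encodes CD25, was found in 22.6% of Flt3- Ly6d+ and 7.63% of Flt3- Ly6d- HSA- cells although both were CD25-, in 3.89% of Flt3+ HSA+ and 0.992% of Flt3+ Ly6d- HSA- cells, and in 63.1% of control cells. Cd24a, which encodes HSA, was found in 88.4% of Flt3+ HSA+ cells but also in 54.9% of Flt3- Ly6d- HSA- and 62.0% of Flt3+ Ly6d- HSA- cells. Kit was found in 63.2% to 71.2% of cells of every sort. Median depth differed, from 9860 UMIs per cell in the Flt3- Ly6d- HSA- sort to 21151.5 in the Flt3+ HSA+ sort, so shares of cells are also given with every cell thinned to 3000 UMIs. Levels are summed UMIs divided by the total and scaled to counts per 1e+06 UMIs (CPM). Each population was sorted once, so no difference has a replicate check and none was tested, and all intervals are 95% intervals that cover counting error only. Cells with at least 7 of 14 granulocyte and monocyte markers, none of them a Ly6 gene, form what is called the granulocyte class. It held 0 Flt3- Ly6d+ cells, 101 Flt3- Ly6d- HSA- cells, 28 Flt3+ HSA+ cells, 66 Flt3+ Ly6d- HSA- cells and 45 control cells.

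Ly6d RNA followed the Ly6d gate in level, and far less sharply cell by cell. Its level was 431 CPM (419 to 444) in the Flt3- Ly6d+ sort, 11.3 (9.65 to 13.2) in the Flt3- Ly6d- HSA- sort, 13.7 (12.3 to 15.2) in the Flt3+ HSA+ sort, 17.5 (15.9 to 19.3) in the Flt3+ Ly6d- HSA- sort and 415 (410 to 420) in the control. Both sorts with high Ly6d stood far above the 3 others, and the 3 others lay close together. The Flt3+ HSA+ sort belonged with the Ly6d- sorts although Ly6d was not part of its gate. In the order of levels, the intervals of 2 pairs of neighbours overlapped, the Flt3- Ly6d- HSA- with the Flt3+ HSA+ sort and the Flt3- Ly6d+ sort with the control.

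**Figure D1:**
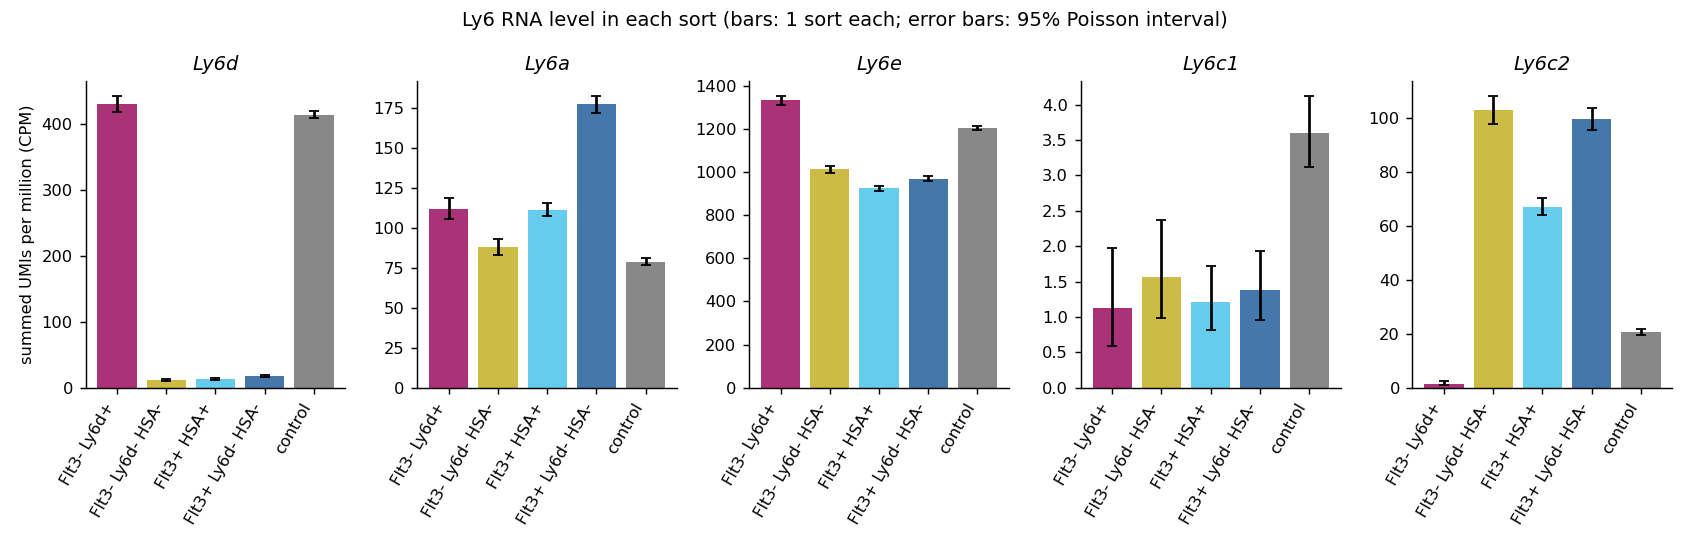
Level of each Ly6 gene in each sort, in summed UMIs as CPM (linear axes that start at 0, with a separate scale for each gene). Each bar is 1 sort and each error bar a 95% Poisson interval. Ly6d is high in the Flt3- Ly6d+ sort and the control, while Ly6c2 is near 0 in the Flt3- Ly6d+ sort, at 1.51 CPM.

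Within the Flt3- Ly6d+ sort, 558 of 847 cells had at least 1 Ly6d UMI, 65.9% (62.6 to 69.1). The share was 8.63% of Flt3- Ly6d- HSA-, 18.4% of Flt3+ HSA+, 16.9% of Flt3+ Ly6d- HSA- and 58.7% of control cells. The granulocyte class, where lymphoid Ly6d is not expected, had a share of 4.58% at a median of 34435.5 UMIs, against a median of 11404 in the Flt3- Ly6d+ sort. Many cells sorted for the surface antigen thus had no Ly6d UMI, and the deeper granulocyte class had a lower share than any sort. After thinning, the shares were 45.8% (42.3 to 49.2) of Flt3- Ly6d+, 3.53% of Flt3- Ly6d- HSA-, 4.00% of Flt3+ HSA+, 5.05% of Flt3+ Ly6d- HSA- and 39.9% of control cells, and 0.417% (0.0105 to 2.30) of the granulocyte class. The share of each Ly6d-low sort lay above that of the granulocyte class at equal depth, and the lowest of them had an interval of 2.55% to 4.76%. At full depth the interval of that sort, 7.11% to 10.4%, overlapped that of the class, 2.31% to 8.05%. Whether RNA from outside the cell gave these UMIs was not tested.

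Cells with more Ly6d UMIs came more often from the Flt3- Ly6d+ sort, but fewer of its cells reached each higher number. At least 1 UMI was found in 65.9% of its cells and at least 5 in 34.0%. At least 10 UMIs were found in 17.8% of Flt3- Ly6d+ cells, in 0 of 1205 Flt3- Ly6d- HSA- cells, in 0 of 1182 Flt3+ HSA+ cells and in 4 of 1412 Flt3+ Ly6d- HSA- cells, beside 25.02% of control cells. Of the 1118 cells with any Ly6d UMI in the 4 gated sorts, the Flt3- Ly6d+ sort supplied 49.9%. It supplied 80.7% of the 456 cells with at least 3 UMIs, 93.2% of the 309 with at least 5 and all 60 with at least 20. With every cell at 3000 UMIs, 232 of the 254 cells with at least 2 UMIs came from it, which is 91.3%. A gated cell with any Ly6d UMI at full depth was about as often from outside the Flt3- Ly6d+ sort as from inside it. With every cell at 3000 UMIs, 378 of 537 such cells came from inside it, which is 70.4%. All these shares also depend on sort size, 847 Flt3- Ly6d+ cells against 1182 to 1412 cells in each other gated sort.

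**Figure D2:**
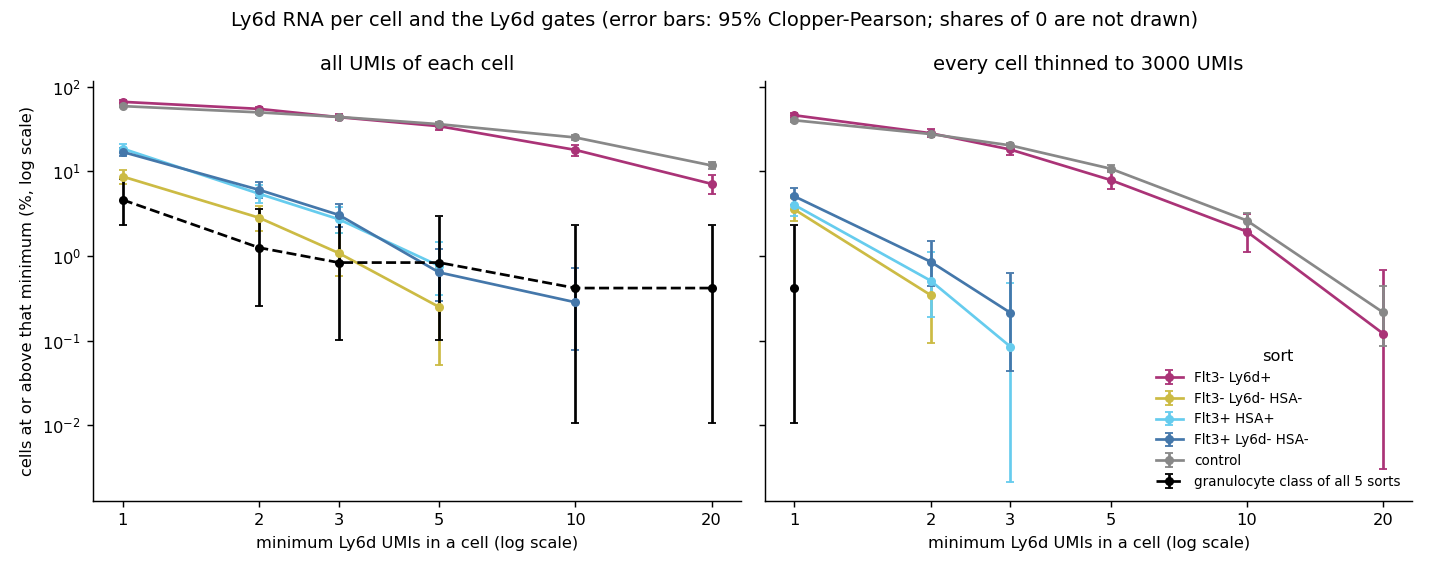
Share of cells (log scale) that held at least a given number of Ly6d UMIs (log scale), at full depth on the left and with every cell thinned to 3000 UMIs on the right. Lines are sorts, the dashed line is the granulocyte class, and error bars are 95% Clopper-Pearson intervals. The Flt3- Ly6d+ sort and the control run together, and the 3 other sorts fall away with each added UMI, to 0.283% at 10 UMIs in the Flt3+ Ly6d- HSA- sort.

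Spread within the 2 high populations was wide. A cell of the Flt3- Ly6d+ sort had a median of 2 Ly6d UMIs, an upper quartile of 7 and a maximum of 77, and its variance over cells was 15.1 times the mean. A control cell had a median of 1, an upper quartile of 9.75 and a maximum of 140, with a variance 22.3 times the mean. The control thus held a larger share of cells at both ends. The ratio of the Flt3- Ly6d+ sort over the control, 1.04 (1.01 to 1.07), was 0.854 when each cell had equal weight and 0.906 after thinning, so no order between them is given.

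In the 3 Ly6d-low sorts, 21 cells had 5 or more Ly6d UMIs: 3 were Flt3- Ly6d- HSA-, 9 Flt3+ HSA+ and 9 Flt3+ Ly6d- HSA- cells. The assigned hashtag made up a median of 99.3% and at least 89.9% of the hashtag counts of each, but the assignment itself rests on hashtags, so whether these cells were sorted into the wrong gate was not tested. Flt3 RNA was found in 16 of the 21, Il2ra RNA in 4 and Bcl11b RNA in 0, and 0 were of the granulocyte class.

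The comparison of Flt3- Ly6d+ with Flt3- Ly6d- HSA- cells asked how the family differs with surface Ly6d. A gene passed the size rule where the levels differed at least 2-fold and the higher sort reached 20 CPM with a UMI in at least 5% of its cells. Of the 5 members 2 passed, Ly6d 38.0-fold higher (32.4 to 44.8) and Ly6c2 68.3-fold lower (41.9 to 120) in Flt3- Ly6d+ cells, against 0.809% of all 5683 genes at that level. The Ly6d difference is in the antigen the sorts were gated on. The Ly6c2 difference went with the granulocyte class, of which the Flt3- Ly6d+ sort had 0 cells and the Flt3- Ly6d- HSA- sort 8.38% of cells and 20.3% of UMIs. Outside the class, Ly6c2 was at 1.51 CPM in Flt3- Ly6d+ cells and 1.16 in Flt3- Ly6d- HSA- cells, and Ly6d was still 30.9-fold higher in Flt3- Ly6d+ cells. Ly6a stood at 1.27-fold and Ly6e at 1.32-fold, both under the size rule. The Ly6a ratio was 1.02 without the granulocyte class, 0.994 without cells with 5 or more of its markers and 0.947 after thinning, so no direction is given for it. Ly6c1, with 12 and 22 UMIs, was too sparse to order. Since the Flt3- Ly6d+ sort was not gated on HSA, differences that go with Ly6d and with HSA cannot be told apart.

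Between the Flt3- and the Flt3+ sort of the Ly6d- HSA- gate, 1 member passed the size rule, Ly6a, against 2.58% of 5691 genes. The Flt3- Ly6d- HSA- sort had 88.0 CPM of Ly6a (83.2 to 93.1), and the Flt3+ Ly6d- HSA- sort 177 (172 to 183), 2.02-fold lower (1.89 to 2.15). That value sits at the edge of the rule. Without the granulocyte class, in which Ly6a was low, the levels were 109 CPM in Flt3- Ly6d- HSA- and 196 CPM in Flt3+ Ly6d- HSA- cells, and the rule was no longer met, at a ratio of 0.559. Ly6d, at a ratio of 0.647 (0.536 to 0.777), was below the 20 CPM minimum in both sorts. Ly6e and Ly6c2 had ratios of 1.04 and 1.03.

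HSA on Flt3+ cells went with differences under the size rule. Of the 5 members 0 passed between Flt3+ HSA+ and Flt3+ Ly6d- HSA- cells, against 0.253% of 5533 genes. Ly6a had the ratio farthest from 1 among the better measured members, with 111 CPM (107 to 116) in the Flt3+ HSA+ sort against 177 in the Flt3+ Ly6d- HSA- sort, a ratio of 0.628 (0.599 to 0.659). Ly6d was at a ratio of 0.779 and Ly6e at 0.955. Ly6c2 was at 0.674 (0.633 to 0.717), and at 0.0550 without the 5% of cells with most UMIs in each sort. Granulocyte class cells of the Flt3+ HSA+ sort were deep, at a median of 47218.5 UMIs against 20856.5 outside the class. Without the class the Ly6c2 ratio was 0.547, from 1.11 CPM in Flt3+ HSA+ and 2.04 CPM in Flt3+ Ly6d- HSA- cells. Between Flt3- Ly6d+ and Flt3+ HSA+ cells Ly6d alone of the 5 passed, 31.6-fold higher (28.3 to 35.3), against 4.58% of 5809 genes. Ly6c2 was 44.5-fold lower (27.3 to 78.1) in Flt3- Ly6d+ cells, and missed the rule because only 4.399% of Flt3+ HSA+ cells had a UMI. Ly6a was level there at 1.004-fold (0.938 to 1.07), so its order over the sorts, highest in Flt3+ Ly6d- HSA- cells, differed from that of Ly6d. Between Flt3- Ly6d+ cells and the control 0 members passed, against 2.95% of 5824 genes, with Ly6a at 1.42-fold and Ly6e at 1.11-fold. Ly6c2 was 13.7-fold lower (8.39 to 24.0) in Flt3- Ly6d+ cells, with a UMI in 2.45% of control cells, and Ly6c1 3.19-fold lower (1.79 to 6.27) from a level under 20 CPM, so neither met the rule.

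Ly6a RNA was most frequent in Flt3+ cells. By level over whole sorts, the intervals of the Flt3- Ly6d+ sort, 112 CPM (106 to 118), and the Flt3+ HSA+ sort overlapped, and no others did. Outside the granulocyte class, Ly6a was at 109 CPM (103 to 116) in Flt3- Ly6d- HSA- and 118 (113 to 122) in Flt3+ HSA+ cells. The intervals of these and of the Flt3- Ly6d+ sort, which had 0 class cells, all overlapped. A Ly6a UMI was found in 50.5% of Flt3- Ly6d+, 44.1% of Flt3- Ly6d- HSA-, 71.7% of Flt3+ HSA+, 73.9% of Flt3+ Ly6d- HSA- and 52.7% of control cells. In the granulocyte class it was 13.3%. At 3000 UMIs the shares were 22.8%, 23.1%, 28.1%, 37.9% and 20.1% in the same order of sorts, and 2.50% in the granulocyte class. Both Flt3+ sorts had the higher values at equal depth, but the interval of the Flt3+ HSA+ sort, 25.6% to 30.8%, still touched those of both Flt3- sorts. Outside the class the shares at this depth were 25.3% of Flt3- Ly6d- HSA- and 28.7% of Flt3+ HSA+ cells.

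Ly6e, the broadly expressed member, varied least. Its level was 1333 CPM (1311 to 1355) in Flt3- Ly6d+, 1012 in Flt3- Ly6d- HSA-, 926 in Flt3+ HSA+, 970 in Flt3+ Ly6d- HSA- and 1204 in control cells. A UMI was found in 97.5% to 99.7% of cells of every sort, and in 100% of the granulocyte class. The highest sort was 1.44 times the lowest, and intervals of neighbouring sorts in this order did not overlap.

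Ly6c1 was close to the limit of detection, with 12 UMIs in Flt3- Ly6d+, 22 in Flt3- Ly6d- HSA-, 31 in Flt3+ HSA+ and 34 in Flt3+ Ly6d- HSA- cells, and 206 in the control. The 4 gated sorts lay between 1.13 and 1.57 CPM with overlapping intervals. The control stood above them at 3.60 CPM (3.13 to 4.13).

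Ly6c2 RNA was nearly all in the granulocyte class. Over the 5 sorts, 6662 of its UMIs lay in 240 class cells and 148 in 7708 other cells, 780 CPM (761 to 799) inside and 1.20 (1.01 to 1.41) outside. By sort, the class had 502 CPM in Flt3- Ly6d- HSA-, 1222 in Flt3+ HSA+, 955 in Flt3+ Ly6d- HSA- and 631 in control cells. Of the 138 cells outside the class with Ly6c2 RNA, 131 had a single UMI, and the highest count was 4. Outside the class the levels ran only from 0.848 CPM in the control to 2.04 in Flt3+ Ly6d- HSA- cells. Over whole sorts, Ly6c2 was at 1.51 CPM in Flt3- Ly6d+, 103 in Flt3- Ly6d- HSA-, 67.1 in Flt3+ HSA+, 99.6 in Flt3+ Ly6d- HSA- and 20.6 in control cells, the same order as the class's share of cells, 0%, 8.38%, 2.37%, 4.67% and 1.36%.

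The other members did not share this. Inside the class Ly6c1 was at 0.468 CPM (0.128 to 1.20), against 2.44 (2.17 to 2.73) outside, although Ly6c2 was abundant in the same cells. Ly6d was at 6.32 CPM inside, of which 46 of 54 UMIs came from 3 control cells, and 236 outside. Ly6a was at 8.66 CPM inside and 114 outside. Ly6e was at 985 CPM inside and 1104 outside, and inside the class it ranged from 638 CPM in Flt3+ HSA+ to 1136 CPM in Flt3- Ly6d- HSA- cells.

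**Figure D3:**
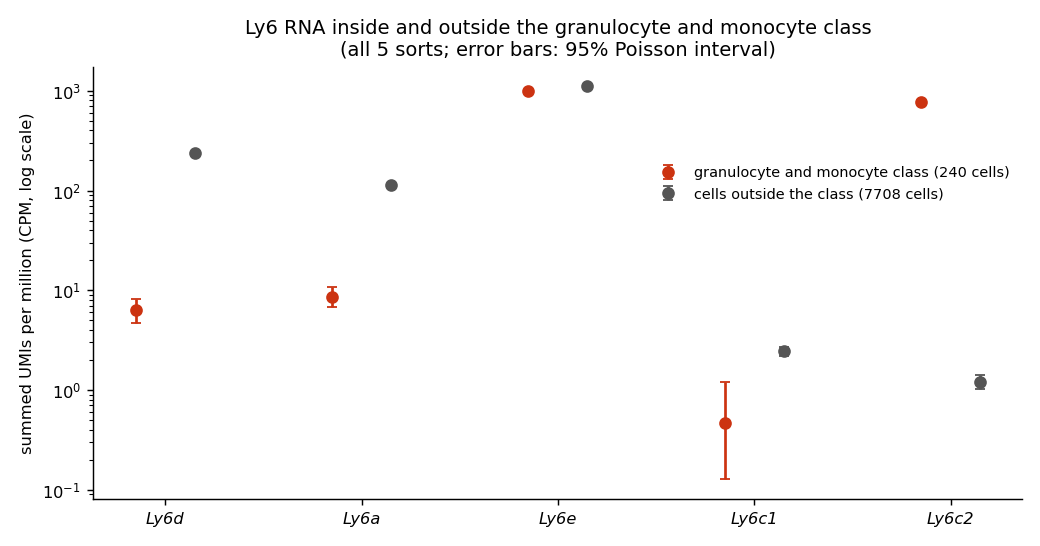
Level of each Ly6 gene (summed UMIs as CPM, log scale) in the granulocyte class, left point of each pair, and in all other assigned cells, right point. Error bars are 95% Poisson intervals, smaller than the point where not visible. Ly6c2 is 780 CPM inside and 1.20 CPM outside, and Ly6c1 lies on the opposite side, 0.468 CPM inside and 2.44 CPM outside. The Ly6c1 point inside rests on 4 UMIs, and all points pool sorts.

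The control spans progenitor and DN2 stages, and its cells were classed by RNA: 1112 with neither Il2ra (CD25) nor Bcl11b UMIs, 766 with Il2ra and without Bcl11b, 835 with Bcl11b and without Cd3g, and 589 with Bcl11b and Cd3g. Bcl11b is the transcription factor of T-lineage commitment and Cd3g encodes one of the CD3 chains. These classes are cut from detection of RNA, so they are ranges and not cell types, and their median depths ran from 13814 to 18333 UMIs. Ly6d was at 74.4, 238, 693 and 821 CPM in this order, in 26.9%, 46.7%, 89.5% and 90.5% of cells. Each step up lay outside counting error, and the last class was 11.02-fold (10.4 to 11.7) above the first. The step between the last 2 classes was 1.18-fold (1.15 to 1.22). The 39 granulocyte class cells of the first class moved this little, since without them and the 1 such cell of the last class the ratio was 10.2. Classing after thinning gave the same order, with 162, 484, 811 and 1485 CPM, but a larger last step, so the size of each step depends on how the classes are cut.

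The other members parted over these classes. Ly6a ran the opposite way to Ly6d, at 105, 78.5, 61.4 and 59.0 CPM, with the last class at 0.561 (0.509 to 0.616) of the first. Ly6e varied little, at 1026, 1207, 1350 and 1285 CPM. Ly6c1 was higher in the 2 classes with Bcl11b, at 0.995, 1.53, 4.50 and 9.77 CPM, from 18, 20, 74 and 94 UMIs, and was 9.82-fold (5.89 to 17.3) higher in the last class than in the first. Its first 2 classes were not told apart, at a ratio of 1.54 (0.774 to 3.09), and after thinning it was at 2.40, 2.18, 10.2 and 13.4 CPM, with a smaller difference from first to last. Ly6c2 was at 54.9, 3.60, 6.76 and 2.81 CPM, and outside the granulocyte class the last over the first was 0.995, from 8 and 14 UMIs. The pair of near-copies thus differed in where they were read here too.

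**Figure D4:**
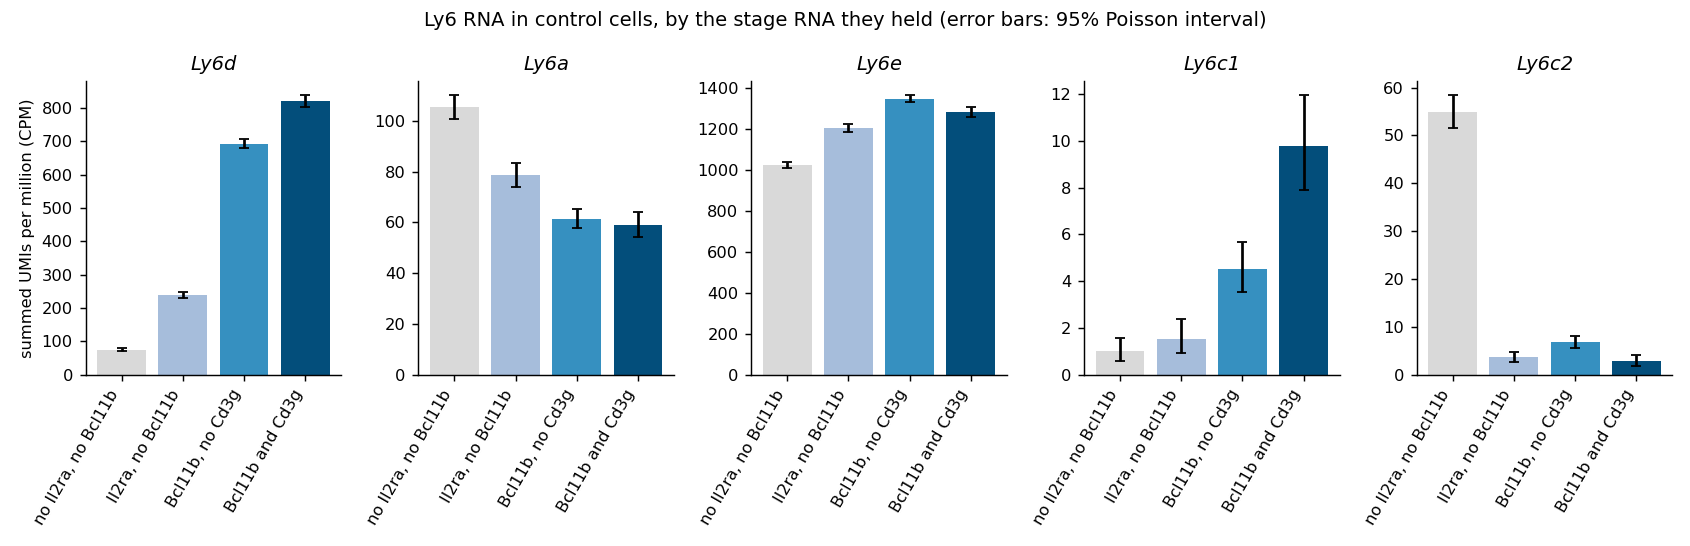
Level of each Ly6 gene (summed UMIs as CPM, linear axes from 0) in control cells classed by Il2ra, Bcl11b and Cd3g RNA, in stage order from left to right. Error bars are 95% Poisson intervals. Ly6d climbs to 821 CPM and Ly6c1 to 9.77 CPM, while Ly6a declines to 59.0 CPM. The Ly6c2 bar of the first class holds the UMIs of 39 granulocyte class cells.

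Cells with and without Ly6d RNA were next compared inside a sort, at 3000 UMIs per cell, over a list of 22 T-lineage stage genes. In the control, 892 cells had 2 or more Ly6d UMIs and 1952 had 0. All 22 genes were measured, and 12 were at least 1.5-fold higher and 8 at least 1.5-fold lower in cells with Ly6d RNA, against 5.66% higher and 4.22% lower of 5967 genes. Higher were the receptor chain genes Cd3d (17.6-fold) and Cd3g (13.8-fold), Ptcra of the pre-T-cell receptor (16.0-fold), Bcl11b (5.88-fold) and Il2ra (2.65-fold). Lower were Lmo2, a regulator of stem and progenitor cells (6.83-fold), Flt3 (6.35-fold) and the progenitor antigen Cd34 (4.18-fold). The control classes above were cut by Il2ra, Bcl11b and Cd3g, so for these genes the split restates the same association. The cells without Ly6d RNA held 44 granulocyte class cells and the others 0, at median depths of 15927 UMIs without and 15814 with Ly6d RNA before thinning. Their part in these ratios was not tested. Ly6c1 was 3.16-fold (1.67 to 6.12) higher, Ly6e 1.26-fold higher and Ly6a 1.64-fold lower (1.38 to 1.96) in cells with Ly6d RNA.

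In the Flt3- Ly6d+ sort the same split, 232 cells against 448, moved few genes of the list. Of 14 measured, 1 was higher, Il2ra at 1.60-fold (0.943 to 2.69), and 1 was lower, Lmo2 at 1.65-fold (1.14 to 2.44), beside 5.77% higher and 6.29% lower of 6029 genes. The interval of Il2ra includes 1. The median log2 ratio was 0.03 over the 14 genes in this sort, against 0.01 over all genes measured. In the control it was 0.84 over 22 genes, against 0.04. The list medians cover unlike genes, since Cd3d, Cd3g, Ptcra, Bcl11b and Flt3, among others, were measured only in the control. They are therefore not compared. Bcl11b had 8 UMIs in the cells with Ly6d RNA and 1 in those without, too few to rank. Ly6e was 1.30-fold (1.20 to 1.40) higher in cells with Ly6d RNA, close to its ratio in the control, and Ly6a was at 1.12-fold (0.845 to 1.47).

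The genes most like Ly6d were taken by Pearson r. Over 3250 control cells at equal depth, among 5794 genes, Bcl11b came first (r = 0.479), then Cd3g (0.412), Myl10 (0.383), Crip1 (0.380), Cd3e, Cd3d, Aqp11, Lat, Arpp21 and Thy1 (0.335). These cells share 1 library and span several stages. Bcl11b and Cd3g also cut the control classes above, so their ranks are not an independent result. Within 826 Flt3- Ly6d+ cells the highest of 5691 genes was another member, Ly6e, at only 0.218, followed by Crip1 at 0.168, and such weak values in sparse counts are no finding. Across the 5 populations, which share a library and number too few for more than a description, Socs1, an inhibitor of cytokine signalling, was first at 0.971 among 435 genes, with 18.3 CPM in the Flt3- Ly6d+ sort, 10.1 to 11.5 CPM in the 3 other gated sorts and 22.4 CPM in the control. Bdh1, Emid1, Sla2, Dtnbp1, Rras2, Drosha, H2-Q7, Ptger4 and Cd247 followed, down to 0.905.

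Beyond the 5 members, 45 further genes of the wider Ly6 and urokinase receptor family were listed and 34 were in the gene list. Of these, 26 stayed below 1 CPM in every population and 4 reached 5 CPM in any. Ly6k, a neighbour of Ly6d on the same strand at chr15:74796874-74799986, was at 11.8 CPM in Flt3- Ly6d+, 9.27 in Flt3- Ly6d- HSA-, 7.26 in Flt3+ HSA+, 3.86 in Flt3+ Ly6d- HSA- and 26.2 in control cells. It was 2.40-fold (1.83 to 3.17) higher in Flt3- Ly6d- HSA- than in Flt3+ Ly6d- HSA- cells, but 1.27-fold (0.985 to 1.64) between Flt3- Ly6d+ and Flt3- Ly6d- HSA- cells, where Ly6d differed most. Over the 4 control classes Ly6k was at 10.8, 22.2, 36.0 and 44.1 CPM and Lypd6b at 3.76, 6.82, 10.4 and 13.6 CPM, both in the order of Ly6d. Plaur, the urokinase receptor, was at 4.90 CPM in the Flt3- Ly6d+ sort, 4.48 CPM in the control and otherwise between 6.71 and 7.92. Bambi, a decoy receptor of TGF-beta signalling, lay between 8.53 and 9.74 CPM in every population.

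Linked gene lists were set beside the Ly6d gate, as genes at least 1.5-fold apart among those at 5 CPM or more. The granulocyte class was left in, with 20.3% of UMIs in the Flt3- Ly6d- HSA- sort and 0% in the Flt3- Ly6d+ sort. Genes low in that class thus have raised ratios of Flt3- Ly6d+ over Flt3- Ly6d- HSA- cells. The lists were not read without the class. Over all 9178 genes measured, 1.75% were higher and 2.47% lower in Flt3- Ly6d+ than in Flt3- Ly6d- HSA- cells, with a median log2 ratio of 0.02. Of 22 genes that build or attach GPI anchors 0 were higher and 0 lower, with a median of -0.02. Of 33 interferon response genes, a group that Ly6a and Ly6e respond with in other settings, 0 were higher and 0 lower, with a median of 0.11. Of 20 genes listed for the B lineage of Ly6d+ lymphoid progenitors, 8 were measured, and 2 were higher and 0 lower. Higher were the cytokine receptor gene Il7r at 29.6 CPM in Flt3- Ly6d+ against 14.1 in Flt3- Ly6d- HSA- cells and the recombinase gene Rag2 at 8.29 against 4.35. The B-cell receptor gene Cd79b was at a ratio of 0.907 and Blk at 1.15, so no B-lineage direction is given. Of 16 measured T-lineage stage genes 3 were higher, Il2ra at 3.26-fold, Cd24a (HSA) at 2.11-fold and the Notch-induced factor gene Tcf7 at 1.74-fold, and 2 were lower, Lmo2 at 0.464 and Flt3 at 0.599 of the Flt3- Ly6d- HSA- level. Cd24a is a gate gene here, since the Flt3- Ly6d- HSA- sort was gated against HSA. Of 12 measured granulocyte and monocyte markers 12 were lower, with a median log2 ratio of -6.06. These markers define the granulocyte class, which the Flt3- Ly6d+ sort lacked, so their values restate that absence.

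The interferon response list was also read where Ly6a was lower, again with the granulocyte class left in. The class held 20.3% of UMIs in the Flt3- Ly6d- HSA-, 10.2% in the Flt3+ Ly6d- HSA- and 5.40% in the Flt3+ HSA+ sort. Its part in the values below was not tested. Of 33 genes measured, 3 were lower and 0 higher in the Flt3- Ly6d- HSA- than in the Flt3+ Ly6d- HSA- sort, against 4.59% lower and 4.56% higher of all 9210 genes, with median log2 ratios of -0.18 over the list and 0.03 over all. One of them, Ifi27l2a, had 36.2 CPM in the Flt3- Ly6d- HSA- sort and 65.0 CPM in the Flt3+ Ly6d- HSA- sort. Set against the same sort, Flt3+ HSA+ cells had 4 of the 33 lower and 0 higher, against 0.75% lower and 2.05% higher of all 9066 genes, with a median of -0.22 over the list. Ifit1, which binds viral RNA, had 8.74 CPM in the Flt3+ HSA+ sort and 15.6 CPM in the Flt3+ Ly6d- HSA- sort. The 2 comparisons share the Flt3+ Ly6d- HSA- sort. Ly6a itself had log2 ratios of -1.01 and -0.67 in them.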

How the data were processed

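Single-cell RNA of 5 hashtagged thymus sorts was read as 1 cDNA library. The deposited values are raw UMI counts per gene and barcode, which the authors made with Cell Ranger 3.0 on mm10, per the submitters' processing notes; their demultiplexed cell table gave each barcode its sort, by a rule not given in the sources used here. Hashtag counts, also deposited by the authors, served only to check that table: the assigned hashtag was the highest in 100% of assigned cells. Unassigned barcodes (345) stayed out of every comparison, and no doublet caller was run on the assigned cells. Counts were summed per sort (10616041 to 57199129 UMIs) and divided by totals to give CPM with exact Poisson intervals; ratios have binomial intervals, and shares Clopper-Pearson intervals at 95%. Thinning used seed 21. Reads in repeats shared by paralogues were counted as the authors left them. The members and gene lists were chosen with earlier results of these data known. Other genes were named by fixed rules: family genes at 5 CPM, the 10 most like Ly6d by each measure (log2 of CPM + 1 over sorts), and at most 6 genes of a list past 1.5-fold. Within-sort genes of the stage list were named as examples after their values were seen. Ifi27l2a and Ifit1 of the interferon list were also named as examples, outside these rules. With 1 sort per population no count model was fitted; edgeR 4.0.16 and DESeq2 1.42.0 gave only alternative scaling factors, in R 4.3.3. Python 3.11.15, numpy 2.4.6, scipy 1.17.1, pandas 2.3.3, biopython 1.88 and matplotlib 3.10.9 did the rest, and the scripts were tested on simulated data.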

Additional observations from a re-analysis of the deposited data

Results flagged for a closer look

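Ly6d RNA was also read in the 345 barcodes that the authors assigned to no sort, which the comparisons do not use: 219 CPM (210 to 228), with a UMI in 60.3% of them, at a median of 29414 UMIs per barcode. The level lies between those of the Ly6d-high and Ly6d-low sorts. In 259 of these barcodes a second hashtag made up at least 20% of hashtag counts and the pair included the Flt3- Ly6d+ or the control hashtag, and there Ly6d was at 261 CPM (250 to 272). In 54 with a second hashtag and neither of those 2, it was at 18.5 CPM (12.7 to 26.2).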

How the results depend on the processing

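The Ly6d ratio of Flt3- Ly6d+ over Flt3- Ly6d- HSA- cells was 38.0, and 31.1 with equal weight for each cell, 30.9 without the granulocyte class and 30.0 without cells with 5 or more of its markers. In this comparison 2 members passed the size rule, but 1 after thinning, without the 5% of cells with most UMIs, without the class or without cells with 5 or more markers. The Ly6c2 ratio, 0.0146, stayed low at 0.0648 after thinning and 0.0694 without the deepest 5%, where it no longer met both minimums, and turned to 1.30 without the class and 1.51 without cells with 5 or more markers, which removes the cells that held its RNA. Between Flt3- Ly6d- HSA- and Flt3+ Ly6d- HSA- cells, 1 member passed, but 0 with totals without mitochondrial and ribosomal protein genes, with equal weight, after thinning, without the deepest 5%, without the class and without cells with 5 or more markers, while the Ly6a ratio ranged from 0.471 to 0.570. Between Flt3+ HSA+ and Flt3+ Ly6d- HSA- cells, 0 passed, and 1 at 1.5-fold. With no minimum level or share, 2 members in place of 1 passed between Flt3- Ly6d+ and Flt3+ HSA+ cells, Ly6d and Ly6c2, and 2 in place of 0 between Flt3- Ly6d+ cells and the control, Ly6c1 and Ly6c2. The Ly6d ratio over Flt3+ HSA+ cells was 31.6, and 28.0 with equal weight. The Ly6d ratio over the control was 1.04. It was 1.09 without mitochondrial and ribosomal protein genes, 0.854 with equal weight, 0.906 after thinning, 1.003 without the deepest 5%, 1.003 without cells with 5 or more markers and 0.963 without the 10 cells of each sort with most Ly6d UMIs. Apart from the marker-based exclusions, the cause of these moves was not tested. Another 107 values of these 10 results stayed within counting error or, for counts, within 1.5 times. The filter on hashtag purity kept every assigned cell, so it changed nothing. Leaving out replicates could not be done with 1 sort per population. No paired analysis was possible because each population was sorted once. Depth limits Ly6c1 most, with 12 to 34 UMIs in the gated sorts.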

Other observations

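Pairs of members were also counted in single cells at 3000 UMIs, beside the product of their separate shares. In the control, Ly6d and Ly6a were read together in 6.46% of cells, against a product of 8.02%, and Ly6d and Ly6c1 in 0.954%, against 0.602%. In the Flt3- Ly6d+ sort, Ly6d and Ly6a were read together in 10.2% of cells, close to the product of 10.4%. Ly6c1 and Ly6c2 were read together in 0 cells of any sort at this depth, where the largest product was 0.0184%, so no joint cell would be seen either way. In the Flt3+ Ly6d- HSA- sort, Ly6a and Ly6c2 were read together in 0.285% of cells, against a product of 1.40%. In that sort 98.2% of Ly6c2 UMIs lay in the granulocyte class. Ly6a was found there in 4.55% of cells at this depth, against 39.5% of cells outside the class. Pairs were not counted outside the class.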
